A study of Homo sapiens with 12 samples.

Results

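A set of 10 genes outside the mitotic programme stood lower in human epithelial cells given an siRNA against the transcription factor FOXM1, with or without a second siRNA against the kinetochore protein CENPF. They are TMEM71, B3GNT5, RMND5A, SMIM13, ANGPT1, BMPER, AVL9, AZIN1, BTG3 and FAM110A, 10 of the 14862 genes in the normalized count table. They were chosen by their normalized counts, which were lower in the FOXM1 siRNA libraries, alone and combined with CENPF siRNA, than in the other libraries, and for having no mitotic role attached to them. Their lower level with FOXM1 siRNA is therefore described below without a test. Tested are the effect of CENPF siRNA on them, and whether the effect of FOXM1 siRNA differed with CENPF siRNA present. Those tests use libraries that also chose the genes, so their results may reflect that choice. The second criterion holds loosely for FAM110A, whose protein is known to sit at centrosomes and spindle poles.

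The cells were parental wild-type hTERT-RPE1, a human line derived from retinal pigment epithelium and kept dividing by telomerase. All received 20 nM siRNA overnight and were collected after 48 hours: a negative control (siNeg), siCENPF, siFOXM1, or siCENPF+siFOXM1, called both siRNAs here. Each of these 4 groups had 3 polyA RNA libraries numbered 1 to 3. The siRNA sequences, and whether cells given both received 20 nM of each or in total, are not given in the sources used here, and nothing says that the libraries came from separate cultures, so p-values measure only the spread between these samples.

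FOXM1 is a forkhead transcription factor that works with the MuvB complex and B-MYB to raise genes of G2 and M phase, such as cyclin B and Aurora kinases, as cells approach division. CENPF is a large coiled-coil protein of the outer kinetochore and nuclear matrix that accumulates in G2. An siRNA lowers its target by full pairing of its guide strand, and the bases near the 5′ end of a guide can also pair with short matches in the 3′ UTR of other mRNAs.

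A 7-base word was common in the 3′ UTRs of genes that were lower with FOXM1 siRNA, and 5 of the 10 genes held it. Its sites in 4 of these are printed here because the list splits by it, and the site in AZIN1 is not printed. Among 300 other genes lower in siFOXM1 and in both siRNAs against siNeg (limma with a term for the replicate number, adjusted p under 0.05 in each), all 16384 words of 7 bases were ranked by how many genes held them beyond genes of like 3′ UTR length. GTGTTTA ranked first. It stood in 120 of the 300, where the length of their 3′ UTRs gave 62.5, and in 17.8% of the 11801 genes searched. The next word, AAGATGA, stood in 98 where length gave 64.6. The reverse complement TAAACAC stood in 53 where length gave 45.9. Coordinates below are on hg38 and the plus strand, the sequences (GENCODE 29) run 5′ to 3′ as in the mRNA, and capitals mark the word. Each lies in an annotated 3′ UTR, except that of FOXM1.
B3GNT5 first site, chr3:183271765-183271791: atattggtctGTGTTTAagtttgttat
B3GNT5 second site, chr3:183272798-183272824: atacttggaaGTGTTTAaggttgccat
RMND5A first site, chr2:86773727-86773753: tccccgccatGTGTTTAatattcctcc
RMND5A second site, chr2:86774019-86774045: agcaggctgcGTGTTTAagaatttcat
SMIM13, chr6:11136293-11136319: tctgggctgaGTGTTTAccagggagaa
AVL9, chr7:32584674-32584700: gaagacctatGTGTTTAtttttcaacc
FOXM1, coding exon 5, minus strand, word at chr12:2866395-2866401: attggaccagGTGTTTAagcagcagca

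The word was held by 5 of the 10 genes, where genes of like 3′ UTR length gave 2.29. These were B3GNT5 and RMND5A with 2 matches each, and SMIM13, AVL9 and AZIN1 with 1 each. TMEM71, ANGPT1, BMPER, BTG3 and FAM110A had none. The word was ranked in genes lowered in comparisons that also chose the 10, so the count of 5 is a description and tests nothing. The 10 genes had a median 3′ UTR of 2414.5 bases, against 1412 for all genes searched. The targeted mRNA held the word too, in a coding exon of all 5 of its annotated coding transcripts and in no 3′ UTR, and the printed stretch crosses an exon junction. The FOXM1 transcript searched is 3487 bases long, and how often other transcripts of that length hold the word was not counted. Whether the guide of the FOXM1 siRNA can pair with these sites was not tested, since its sequence is not given.

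Changes of genes with and without the word are given as a description. Across all other genes searched, the median log2 change with siFOXM1 was -0.04 for the 2097 genes with the word and 0.00 for the 9694 without it. With siCENPF alone the medians were -0.01 and 0.00. Within the list, the 5 genes with the word changed by -1.08 to -0.60 with siFOXM1 and the 5 without it by -2.53 to -0.44, values that chose the 10 genes and support nothing about the word. When the set of lowered genes was called without the replicate term it shrank to 23 genes, and the word ranked 680 (6 genes, where length gave 3.37). Restricted to the first 1000 bases of each 3′ UTR it again ranked first, in 64 of the 300 where length gave 25.6, and 4 of the 10 genes held it. Both of these settings were chosen after seeing the data.

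**Figure D1:**
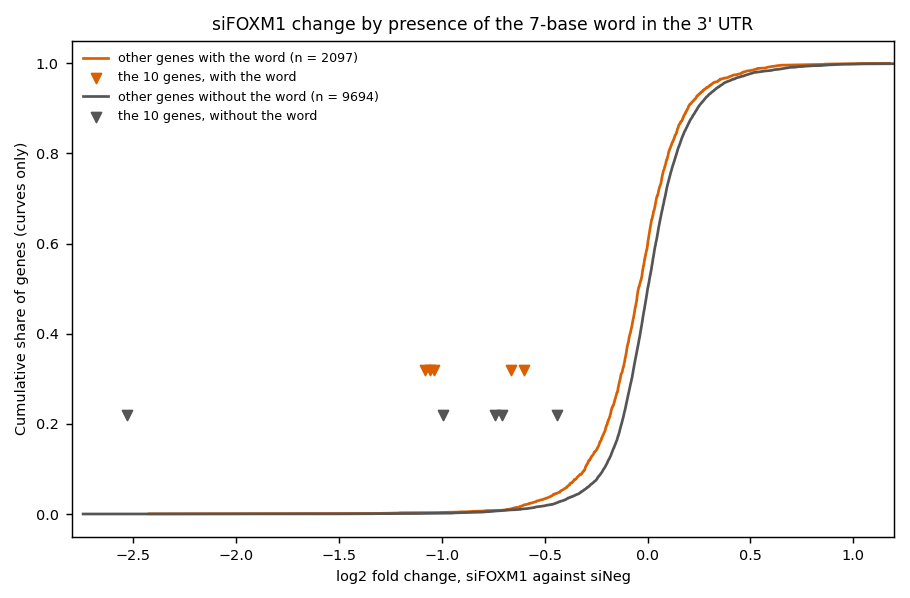
Cumulative share of genes (vertical axis, curves) by log2 fold change of siFOXM1 against siNeg (horizontal axis), for other genes with (orange, n = 2097) and without (grey, n = 9694) the 7-base word in the 3′ UTR, with triangles for the 10 genes at arbitrary height. The curves lie close together, with medians of -0.04 and 0.00, while all 10 triangles lie at -0.44 or lower.

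FOXM1 mRNA was strongly lowered by its siRNA, which checks the labels. Its normalized counts were 4186, 4438 and 4763 in libraries 1 to 3 of siNeg, against 3893, 3394 and 4258 after siCENPF. After siFOXM1 they were 732, 491 and 816, and after both siRNAs 729, 816 and 822. All 6 libraries given FOXM1 siRNA lay far below the other 6, and FOXM1 kept 15.2% of its siNeg mean with siFOXM1 and 17.7% with both siRNAs. Both siRNAs and siFOXM1 alone differed by 0.25 ± 0.15 (SE) in log2 FOXM1 (limma adjusted p = 1.00).

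TMEM71, which encodes a transmembrane protein of little-known function, had the largest difference of the 10. It had 288, 353 and 334 normalized counts in siNeg and 249, 288 and 277 after siCENPF. After siFOXM1 it had 50.01, 53.6 and 62.8, and after both siRNAs 66.6, 134 and 90.6. Every library with FOXM1 siRNA lay below every library without it, and the number 2 library of both siRNAs was the highest of the 6. The means were 325 ± 33.7 (SD, n = 3) in siNeg and 55.5 ± 6.62 with siFOXM1, a log2 change of -2.53 ± 0.21 (SE) on the log2(normalized count + 1) scale, and the gene kept 17.1% of its siNeg level. With both siRNAs it kept 29.8%, at 96.9 ± 33.9 (log2 change -1.79 ± 0.21). On hg38 TMEM71 lies on chromosome 8, 132685007 to 132760712, minus strand (ENSG00000165071).

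RMND5A and B3GNT5, a ubiquitin ligase subunit and an enzyme, kept about the same share of control. RMND5A, a RING subunit of the CTLH ubiquitin ligase complex, had 679, 714 and 749 normalized counts in siNeg and 752, 714 and 717 after siCENPF. After siFOXM1 it had 341, 340 and 330, and after both siRNAs 467, 425 and 411. The 3 siFOXM1 values lay within a narrow band, those of both siRNAs lay above them without overlap, and all 6 lay below the other 6. RMND5A kept 47.2% with siFOXM1 (log2 change -1.08 ± 0.09, SE) and 60.8% with both siRNAs (-0.72 ± 0.09). The gene lies on chromosome 2, 86720173 to 86778041, plus strand (ENSG00000153561).

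B3GNT5 is the N-acetylglucosaminyltransferase that starts lacto-series glycolipids. It had 342, 307 and 314 normalized counts in siNeg and 334, 271 and 290 after siCENPF. After siFOXM1 it had 155, 121 and 192, and after both siRNAs 242, 162 and 213. Again the 6 libraries with FOXM1 siRNA lay below the other 6, but the siFOXM1 and both-siRNA values overlapped. B3GNT5 kept 48.7% (log2 change -1.06 ± 0.18, SE) and 64.2% (-0.66 ± 0.18). Its locus is on chromosome 3, 183253244 to 183298504, plus strand (ENSG00000176597), and shares 1315 exonic bases with MCF2L2 on the other strand. MCF2L2 went from 84.0 ± 13.5 (SD, n = 3) in siNeg to 46.6 ± 23.1 with siFOXM1, a log2 change of -0.93, and without a known strand setting reads of the shared bases cannot be told apart. Shorter overlaps with genes of the other strand exist for AVL9 (160 bases, DPY19L1P1), AZIN1 (344, AZIN1-AS1), BTG3 (280, BTG3-AS1) and FAM110A (109, RPS10P5).

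AZIN1, the antizyme inhibitor that spares ornithine decarboxylase from degradation and so favours polyamine synthesis, was the most abundant of the 10. It stood at 3967, 3274 and 3497 in siNeg, 3871, 3217 and 3318 with siCENPF, 2747, 2040 and 2317 with siFOXM1 and 2827, 2460 and 2523 with both siRNAs. The groups with and without FOXM1 siRNA did not overlap. AZIN1 kept 66.1% (log2 change -0.60 ± 0.12, SE) and 72.7% (-0.46 ± 0.12). It maps to chromosome 8, 102826357 to 102893864, minus strand (ENSG00000155096).

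SMIM13, which encodes a small integral membrane protein, also stood below siNeg with siCENPF. It had 704, 510 and 692 normalized counts in siNeg and 525, 329 and 421 after siCENPF. After siFOXM1 it had 337, 243 and 348, and after both siRNAs 315, 302 and 395. Within each number siCENPF was lower than siNeg, while siCENPF library 2 lay inside the range of the FOXM1 siRNA libraries. SMIM13 kept 66.9% with siCENPF, 48.7% with siFOXM1 (log2 change -1.04 ± 0.20, SE) and 53.1% with both siRNAs (-0.91 ± 0.20). It lies on chromosome 6, 11094033 to 11138733, plus strand (ENSG00000224531).

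AVL9, a protein with a DENN-like domain linked to late secretory transport and cell migration, changed less. It stood at 1154, 1088 and 961 in siNeg, 1157, 781 and 965 with siCENPF, 723, 594 and 705 with siFOXM1 and 885, 687 and 728 with both siRNAs. All siFOXM1 libraries lay below all siNeg libraries, but the number 1 library of both siRNAs stood above siCENPF library 2. AVL9 kept 63.1% (log2 change -0.66 ± 0.14, SE) and 71.8% (-0.48 ± 0.14). Its locus is on chromosome 7, 32495426 to 32588721, plus strand (ENSG00000105778).

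The list holds 2 secreted proteins. ANGPT1, angiopoietin 1, is the agonist ligand of the endothelial receptor TIE2 (gene TEK). It stood at 464, 319 and 481 in siNeg, 565, 338 and 504 with siCENPF, 258, 229 and 254 with siFOXM1 and 375, 248 and 274 with both siRNAs. The siFOXM1 libraries lay below siNeg, while library 1 of both siRNAs stood above siNeg library 2 and siCENPF library 2. ANGPT1 kept 58.8% (log2 change -0.74 ± 0.21, SE) and 71.1% (-0.49 ± 0.21). It maps to chromosome 8, 107249482 to 107498055, minus strand (ENSG00000154188).

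BMPER, an extracellular modulator of bone morphogenetic proteins, was the scarcest of the 10. It stood at 67.3, 20.4 and 59.1 in siNeg, 60.2, 30.3 and 64.1 with siCENPF, 30.6, 11.3 and 27.6 with siFOXM1 and 29.9, 17.6 and 15.2 with both siRNAs. siNeg library 2 lay below 2 of the siFOXM1 libraries, so only the comparison within each number put siFOXM1 below siNeg throughout. BMPER kept 47.3% (log2 change -0.99 ± 0.50, SE) and 42.6% (-1.08 ± 0.50). Its lowest library held 7 reads, with a 95% exact Poisson interval of 2.81 to 14.4 that covers counting error only, and its highest 105 reads. Single libraries moved its siFOXM1 change, to -1.52 without siNeg library 2 and to -0.57 without siFOXM1 library 2. BMPER lies on chromosome 7, 33904911 to 34155872, plus strand (ENSG00000164619).

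BTG3 and FAM110A are tied to proliferation and the cytoskeleton. BTG3, an antiproliferative protein of the BTG/TOB family, stood at 1046, 788 and 1044 in siNeg, 899, 877 and 906 with siCENPF, 773, 610 and 733 with siFOXM1 and 818, 639 and 695 with both siRNAs. The siFOXM1 libraries lay below siNeg, the closest by a small step, and library 1 of both siRNAs stood above siNeg library 2. BTG3 had the smallest change of the 10, keeping 73.5% (log2 change -0.44 ± 0.13, SE) and 74.8% (-0.41 ± 0.13). It lies on chromosome 21, 17593653 to 17612947, minus strand (ENSG00000154640).

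FAM110A stood at 185, 174 and 199 in siNeg, 151, 183 and 159 with siCENPF, 108, 117 and 114 with siFOXM1 and 126, 87.0 and 102 with both siRNAs. The 6 libraries with FOXM1 siRNA lay below the other 6. FAM110A kept 60.9% (log2 change -0.71 ± 0.15, SE) and 56.5% (-0.83 ± 0.15), so it and BMPER were the genes of the list whose level with both siRNAs was not above that with siFOXM1. Its locus is on chromosome 20, 833715 to 857463, plus strand (ENSG00000125898).

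**Figure D2:**
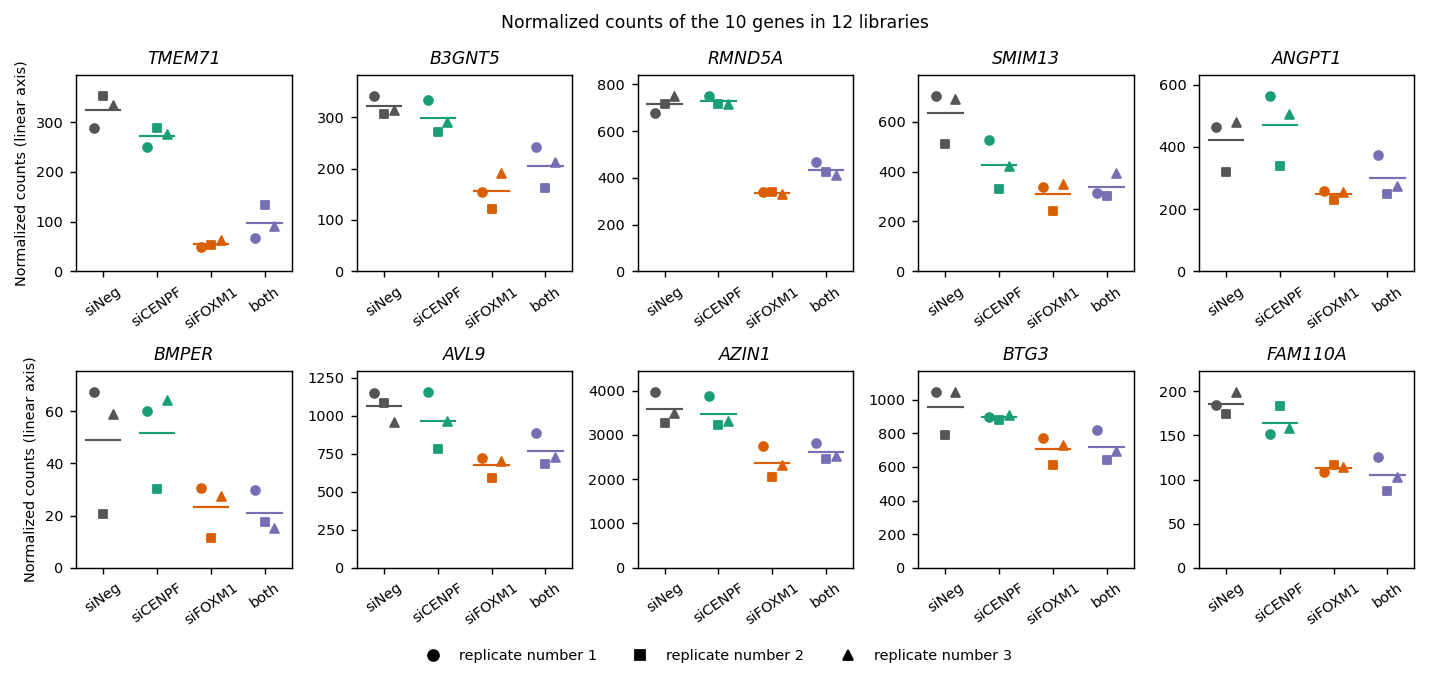
Normalized counts (linear vertical axes from 0) of the 10 genes in the 12 libraries, by siRNA group (horizontal axis), with point shapes for the replicate number and lines for the group means. TMEM71 separates most widely, with 50.01 to 62.8 in siFOXM1 against 288 to 353 in siNeg, while in BMPER, ANGPT1, SMIM13, AVL9 and BTG3 libraries with and without FOXM1 siRNA overlap.

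Side by side, 5 of the 10 genes had all 6 FOXM1 siRNA libraries below all 6 others, a pattern shown by 0.942% of the 14857 genes tested. The 5 were TMEM71, B3GNT5, RMND5A, AZIN1 and FAM110A. For 9 genes, all but BMPER, every siFOXM1 library lay below every siNeg library (6.83% of all genes), and for 7 every library of both siRNAs lay below every siNeg library (6.58%). Within replicate numbers, siFOXM1 was below siNeg in 30 of 30 pairs and both siRNAs were below siCENPF in 30 of 30. For 7 genes every library of both siRNAs lay below every siCENPF library (3.73%). These counts follow from how the genes were picked, as do their medians of -0.87 with siFOXM1 and -0.69 with both siRNAs, where the median of all genes was 0.00 in each. In bulk RNA, fewer cells expressing a gene and less of its RNA per cell cannot be told apart.

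Per unit of length the 10 genes spanned a wide range of levels. Mean FPKM in siNeg was 14.4 ± 1.06 (SD, n = 3) for AZIN1, 9.92 ± 1.34 for BTG3, 5.62 ± 0.85 for SMIM13 and 4.74 ± 0.30 for RMND5A. It was 2.02 ± 0.17 for AVL9, 1.66 ± 0.22 for TMEM71 and 1.36 ± 0.26 for ANGPT1. It was 0.997 ± 0.037 for B3GNT5, 0.981 ± 0.052 for FAM110A and 0.289 ± 0.15 for BMPER. Neighbours whose ranges of mean ± SD overlapped, and which did not differ beyond their spread, were SMIM13 and RMND5A, AVL9 and TMEM71, TMEM71 and ANGPT1, and B3GNT5 and FAM110A. Their percentiles among the genes of the count table ran from 7.19 (BMPER) to 85.6 (AZIN1), with a median of 35.4. Their median exonic length of 10149 bases was close to the 10172 of all genes tested.

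With CENPF siRNA alone 1 of the 10 genes, SMIM13, changed, and only in the blocked test. Against siNeg, 7 of the 10 had a log2 change below 0 and 3 above, with a median of -0.10 (all genes 0.00). Libraries of siNeg and siCENPF were also used to choose the genes, so these signs and the blocked call may reflect that choice, which was not tested. None passed the test in limma without a replicate term, which called 0.337% of all genes, and 1 of the 10 and 821 of all 14857 genes had an unadjusted p under 0.05. edgeR and DESeq2 on the recovered reads called 0 of the 10 as well, and 45 and 136 of all 14150 genes. At an unadjusted p under 0.05 each had 1 of the 10, and 794 and 771 of all genes. Libraries of 1 number deviated together, and with the number as a block limma called 4.52% of all genes (1.66% lower) and 1 of the 10, which was lower.

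That gene was SMIM13. Its log2 change with siCENPF was -0.59 ± 0.20 (SE), a 1.51-fold fall, with a limma adjusted p of 0.529 without the block and 0.000597 with it (SE 0.10). The ratios within numbers 1 to 3 were -0.42, -0.63 and -0.72, so it was lower in 3 of 3. The blocked call held when each of the 12 libraries was left out in turn (highest limma adjusted p 0.0159). TMEM71, B3GNT5 and AZIN1 were also lower in 3 of 3 numbers and did not pass. TMEM71 was at -0.26 ± 0.21 (SE; limma adjusted p = 1.00, and 0.423 with the block). B3GNT5 was at -0.11 ± 0.18 and AZIN1 at -0.05 ± 0.12. ANGPT1 alone of the 10 was higher in 3 of 3, at 0.15 ± 0.21 (SE), and did not pass either (limma adjusted p = 1.00, and 0.565 with the block).

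**Figure D3:**
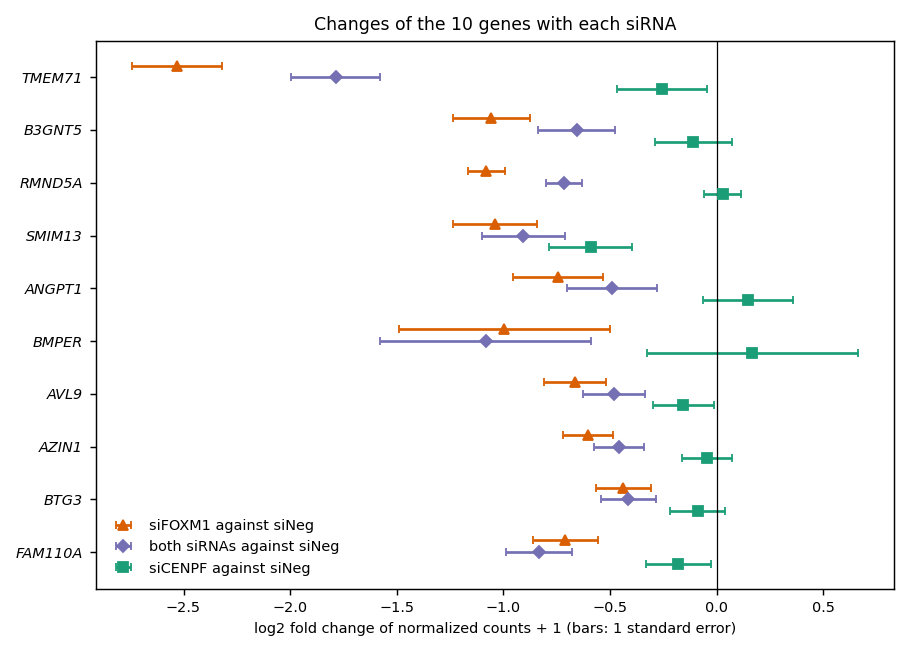
Log2 fold changes (horizontal axis, bars 1 standard error) of the 10 genes with siFOXM1, both siRNAs and siCENPF, each against siNeg. All siFOXM1 and both-siRNA points lie between -2.53 and -0.41, and the siCENPF points lie near 0 except that of SMIM13 at -0.59.

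With CENPF siRNA added to FOXM1 siRNA, none of the 10 genes passed the test without the block and 2 did with it. The log2 difference of both siRNAs against siFOXM1 was above 0 for 8 of the 10, where 50.3% of all genes were, with a median of 0.16 (all genes 0.00). The libraries compared were among those used to choose the genes, so these signs may reflect that choice, which was not tested. Both siRNAs were above siFOXM1 in 24 of 30 pairs of the same number. The exceptions in the mean were BMPER (-0.09 ± 0.50, SE) and FAM110A (-0.12 ± 0.15). In limma without the block, 0.00673% of all genes passed, and 3 of the 10 and 293 of all 14857 genes had an unadjusted p under 0.05. edgeR and DESeq2 each called 0 of the 10, and 1 and 4 of all 14150 genes. At an unadjusted p under 0.05 edgeR had 2 of the 10 and 288 of all genes, and DESeq2 3 and 232.

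With the block, 2 of the 10 passed, both higher, against 0.296% of all genes (0.135% higher). The genes were chosen for low values in the siFOXM1 libraries compared here, so these calls may reflect that choice, which was not tested. They were TMEM71 and RMND5A. TMEM71 was higher with both siRNAs by 0.74 ± 0.21 (SE; 1.67-fold; limma adjusted p = 1.00, and 0.0288 with the block), at 0.41, 1.30 and 0.52 in numbers 1 to 3. RMND5A was higher by 0.36 ± 0.09 (SE; 1.29-fold; limma adjusted p = 1.00, and 0.0497 with the block), at 0.45, 0.32 and 0.32. Both calls were lost in most fits that left out a library. With 1 of the 12 libraries left out in turn, TMEM71 kept the call in 5 and RMND5A in 4 of the 12 fits, with log2 differences of 0.51 to 0.91 and 0.31 to 0.40. TMEM71 lost it without siNeg library 1, siCENPF library 3, any siFOXM1 library, or library 2 or 3 of both siRNAs. RMND5A lost it without siNeg library 1, siCENPF library 3, or any library of siFOXM1 or of both siRNAs. B3GNT5, ANGPT1, AVL9 and AZIN1 were also higher in 3 of 3 numbers and did not pass. They were higher by 0.40 ± 0.18 (SE), 0.25 ± 0.21, 0.18 ± 0.14 and 0.14 ± 0.12 in that order, and the lowest of their p-values was that of B3GNT5 (limma adjusted p = 1.00, and 0.312 with the block).

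The interaction asks whether the effect of FOXM1 siRNA differed with CENPF siRNA present. The fitted value was above 0 for 9 of the 10, where 50.3% of all genes were, with a median of 0.26 (all genes 0.00). It is the difference between comparisons that chose the genes, so its signs and calls may reflect that choice, which was not tested. A value above 0 means a smaller fitted difference with CENPF siRNA present. Without the block limma called 0% of all genes and none of the 10, with 3 of the 10 and 353 of all genes at an unadjusted p under 0.05. edgeR also called 0 genes in all and DESeq2 24, none of them among the 10, of which 3 in each had an unadjusted p under 0.05, as had 341 and 308 of all genes. With the block limma called 0.841% of all genes (0.108% above 0) and 2 of the 10, both above 0.

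Those 2 were TMEM71, at 1.00 ± 0.30 (SE; limma adjusted p = 1.00, and 0.0191 with the block), and SMIM13, at 0.72 ± 0.28 (SE; limma adjusted p = 1.00, and 0.0103 with the block). For TMEM71 the call was lost without siNeg library 1, siCENPF library 3, siFOXM1 library 2 or library 2 of both siRNAs (limma adjusted p up to 0.12). For SMIM13 it was lost without any of those or library 3 of both siRNAs (up to 0.0741). CENPF itself showed an interaction of 0.70 ± 0.13 (SE; limma adjusted p = 0.221, and 0.00112 with the block), and stood at 8442 ± 953 (SD, n = 3) in siNeg, 912.5 ± 96.5 with siCENPF and 1335 ± 44.0 with both siRNAs. FOXM1 itself had an interaction of 0.46 ± 0.22 (SE; limma adjusted p = 1.00, and 0.52 with the block), with the same sign as in 9 of the 10 genes. The part of the level of either target in the values above was not tested.

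**Figure D4:**
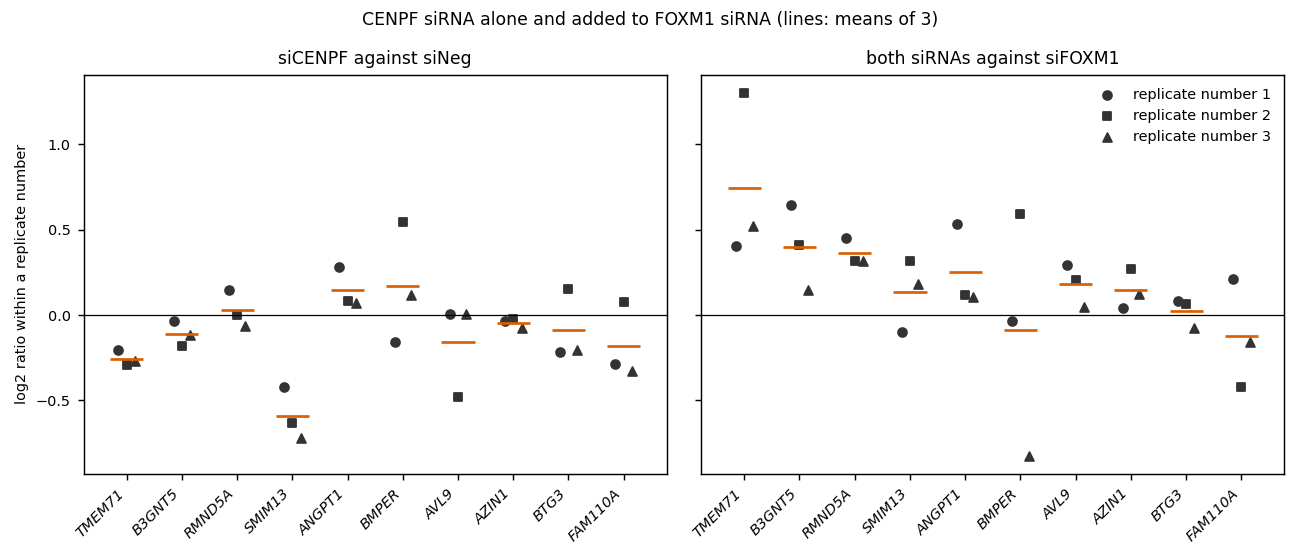
Log2 ratios within replicate numbers (vertical axis) of the 10 genes (horizontal axis) for siCENPF against siNeg (left) and both siRNAs against siFOXM1 (right), with shapes for the number and orange lines for the mean of 3. SMIM13 lies below 0 in all 3 numbers on the left, and 24 of the 30 points on the right lie above 0.

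Other genes of the pathways of these 10 were read from lists. No gene of the CTLH, polyamine, BTG/TOB and CCR4-NOT, BMP, vascular growth factor, glycolipid, FAM110 or DENN lists passed in limma without the block, either with siFOXM1 (0.66% of all genes) or with both siRNAs against siNeg (0.458%). These comparisons share the siNeg libraries. Counts below are for siFOXM1 against siNeg in limma with the block, which called 8.72% of all genes (4.23% lower and 4.48% higher). The blocked fit of both siRNAs against siNeg called 7.9% of all genes, and its counts are given beside them.

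Of 10 other CTLH genes, 1 fell and 2 rose, with a median of 0.06. GID8, a scaffold subunit, fell by 0.29 on the log2 scale (adjusted p 0.02035 in limma). GID4, a substrate receptor, rose by 0.40 (0.0139) and WDR26 by 0.24 (0.00291). With both siRNAs none fell and 1 rose, WDR26. Of 15 polyamine genes tested, 1 fell and 1 rose, with a median of -0.10. ATP13A2, a lysosomal polyamine exporter, rose by 0.33 (adjusted p 0.000483 in limma) and the related ATP13A3 fell by 0.30 (0.000376), while the antizyme OAZ1, which AZIN1 binds, was at -0.11 ± 0.08 (SE) and did not pass. With both siRNAs 1 fell, EIF5A, and 1 rose, ATP13A2.

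Of 14 BTG/TOB and CCR4-NOT genes, 1 fell and 1 rose, with a median of 0.02. TOB2 fell by 0.45 on the log2 scale, from 981.5 ± 122.5 (SD, n = 3) to 717.0 ± 68.5 normalized counts (adjusted p 5.59e-05 in limma). BTG1 rose by 0.23 (0.0059). With both siRNAs TOB2 and CNOT10 fell and BTG1 rose. Of 28 BMP genes, 2 fell and 2 rose, with a median of 0.00. Endoglin (ENG), a co-receptor, fell by 0.61 (adjusted p 0.0073 in limma), and follistatin (FST), a secreted antagonist, by 0.58 (2.27e-05). The secreted antagonist gremlin 1 (GREM1) rose by 0.34 (0.000365) and CRIM1 by 0.21 (0.00712). With both siRNAs FST and ID1 fell and GREM1 and FSTL1 rose.

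Of 11 vascular growth factor genes, none fell and 3 rose, with a median of 0.14. VEGFA rose by 0.62 (adjusted p 5.74e-05 in limma), the integrin subunit ITGA5 by 0.60 (2.3e-06) and PTPRB, a phosphatase that acts on TIE2, by 0.24 (0.00506). With both siRNAs ANGPTL2 fell and VEGFA and ITGA5 rose. Of 17 glycolipid genes, 2 fell and none rose, with a median of 0.08. These were B4GALT6, a lactosylceramide synthase, which fell by 0.38 (adjusted p 0.00573 in limma), and B4GALT4, which fell by 0.30 (0.0432). With both siRNAs none fell and 2 rose, B4GALT2 by 0.27 (adjusted p 0.0054 in limma) and B4GALT1 by 0.20 (0.0123). B4GALT6 was then at -0.13 and B4GALT4 at 0.00, and neither passed, so the direction of the calls differed between the comparisons, a difference that was not tested as such. Of 22 DENN-list genes 1 rose, DENND5B, by 0.36 (0.00256), with a median of 0.05. With both siRNAs 1 fell, DENND2A, by 0.28 (0.0162), and none rose. None of the 3 FAM110-list genes passed in either comparison. ATP13A3, EIF5A, GREM1, CRIM1, ID1, FSTL1, ANGPTL2, B4GALT1 and DENND2A were outside the rule for naming genes and are named after their values were seen.

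Mitotic targets of FOXM1 were lower in part. Of 30 textbook targets, 4 fell without the block with siFOXM1 and 4 with both siRNAs, against siNeg, and none rose. With both siRNAs 1 of the 4 was CENPF, itself an siRNA target, which was also the 1 that fell with siCENPF. CCNA2 fell by 0.63 with siFOXM1 on the log2 scale (limma adjusted p 0.0054), CCNB1 by 0.67 (0.0113) and NEK2 by 0.84 (0.028). The remaining call with siFOXM1 was KIF20A, named after its values were seen, which fell by 0.74 (0.0363). With siFOXM1 15 of the 30 were below 0 and 15 above, with a median of 0.01, and the block called 10 lower and 2 higher. With siCENPF 29 of the 30 were below 0 (50.2% of all genes), with a median of -0.12. The block then called 4 lower (1.66% of all genes) and none higher. CENPF itself, at -3.21, was among the 29 and the 4. The siFOXM1 count dropped to 1 without siNeg library 2 or 3 or siFOXM1 library 1 or 3, and to 2 without siCENPF library 3, siFOXM1 library 2 or library 3 of both siRNAs. With both siRNAs it dropped to 1 without siNeg library 2 or 3 or library 1 of both siRNAs, and to 2 without library 3 of both siRNAs.

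Of the 10 genes, 7 matched RefSeq promoter sequences (GRCh38.p14, 250 bases before to 50 after the start, 10 sequences), and 25 of the 30 targets did. Words known from cell cycle promoters were searched in them on both strands. Counts are by gene over all its sequences, while the percentages are by single promoter, so the units differ. TTTGAA, the letters of the cell cycle homology region, stood in 0 of 7 and in 15 of 25 targets, against 15.2% of 35116 promoters. The related TTCGAA stood in 0 of 7, 2 of 25 and 1.45%, the forkhead core TAAACA in 0 of 7, 4 of 25 and 12.3%, and the E2F letters TTCCCGC in 0 of 7, 3 of 25 and 6.55%. TAAACA read on the other strand is contained in the GTGTTTA of the 3′ UTRs. The NF-Y box that recurs in mitotic promoters, CCAAT, stood in 3 of 7, 21 of 25 and 34.6%. The CCAAT sites of the 3 genes are printed with the letters in capitals (ATTGG where the box is on the minus strand), since they are the only matches in the list.
RMND5A, chr2:86720082-86720108: agctcctcaggCCAATtggggcctcgc
BMPER, chr7:33904818-33904844: tccctcgctggATTGGggcacccgggc
FAM110A first start, chr20:835852-835878: ctggagccttcCCAATctcctctgggg
FAM110A second start, chr20:844566-844592: tgtgcctgctgATTGGctccttgtgga
The RMND5A box overlaps a second one on the minus strand. A match describes letters in this window and nothing of binding there.

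Most of the 10 genes were lower in the number 2 libraries. In 9 of the 10 the mean deviation from the group mean was below 0 in the number 2 libraries, where 49.97% of all genes were. It was -0.69 in log2 for BMPER, -0.29 for ANGPT1 and -0.28 for SMIM13, each lower in all 4 groups, while RMND5A (-0.01) and FAM110A (-0.03) hardly moved. TMEM71 went the other way, at 0.17. Over the 12 libraries, the deviations of 45 pairs of these genes had a median Pearson r of 0.44 and ranged from -0.64 to 0.89 (BMPER with BTG3), a description over libraries that share numbers and depth.

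Genes most like the mean profile of the 10, among 11099 genes with a mean of at least 100 normalized counts, were STAT5B (r = 0.975 over 12 libraries), KHSRP (0.971), FKBP5 (0.968) and BAK1 (0.964), a description with no test. KHSRP, an RNA-binding protein, stood at 6061 ± 411 (SD, n = 3) in siNeg and 3036 ± 190 with siFOXM1. FOXM1, lowered by its siRNA in the same libraries, had an r of 0.944 with this profile. Such r values follow in part from how the 10 genes were chosen.

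RNA quality and cell markers were measured in the same libraries. Reads in genes numbered 13671250 to 35411230 per library. Messages of the mitochondrial genome, listed as a check on RNA quality, were all above 0 with siFOXM1 (13 of 13, median 0.13), with 3 higher in the blocked limma fit and 0 without the block. They were above 0 in 13 of 13 with siCENPF too (median 0.11, 2 higher with the block) and in 11 of 13 with both siRNAs (median 0.07, none called). Of 19 p53 targets the block called 3 higher with siFOXM1, 2 higher and 1 lower with siCENPF, and 1 higher with both siRNAs. Without the block 0 were called in each comparison. The blocked fits called 8.72%, 4.52% and 7.9% of all genes in that order. Among retinal pigment epithelium markers RPE65 and TYR were at 0 in every library. Only 5 of these 15 markers had a mean above 1 FPKM, and BEST1 was the highest. Overlaps of marker exons with genes of the other strand are not described here, and without a known strand setting such reads cannot be told apart. The summed FPKM of the 15 markers was 99.2 to 102 in siNeg, 104 to 112 with siCENPF, 95.8 to 96.7 with siFOXM1 and 99.1 to 103 with both siRNAs. Blood and endothelial markers, none at 0 throughout, summed to 0.347 to 0.695 FPKM in any library. Keratinocyte or carcinoma markers (KRT5 at 0) summed to 0.842 to 2.73, neural markers to 2.00 to 2.71 and fibroblast markers to 1.61 to 9.59 FPKM. The part of these differences in the values of the 10 genes was not tested.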

How the data were processed

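PolyA RNA of 12 hTERT-RPE1 libraries was measured by sequencing. The tools listed in the submitters' processing notes are bcl2fastq, Trimmomatic, TopHat and edgeR, with genome build hg38. Neither the strand setting nor the way counts were normalized is given in the sources used here. The authors deposited normalized counts, a signal on a count scale with column sums of 1.85e+07 to 1.976e+07, for 14862 genes, FPKM for 60279 genes, and 3 tables that compare groups. Per the file headers those hold CPM and, for each gene, a log2 fold change, a test score and a p-value. CPM gave whole reads for 100% of values (tolerance 0.01 reads), and edgeR 4.0.16 and DESeq2 1.42.0 were run on those reads (14150 genes) as alternatives.

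The main test was limma 3.58.1 (R 4.3.3; trend, robust, two-sided) on log2(normalized count + 1), over 4 group means of all 12 libraries, for the 14857 genes that reached 10 normalized counts in 3 or more libraries, with Benjamini-Hochberg adjustment over all of them and a threshold of 0.05. Tested on simulated data for siFOXM1 against siNeg (14857 genes), it recovered 96% of 100 genes changed 2-fold and 100% of 100 changed 3-fold, with 12 unchanged genes called. The simulation gave every gene the same dispersion and no effect of the replicate number, and left scarce genes out of those changed. It checks that the test runs and does not measure its power in these data. The scale understates changes of low genes. Replicate numbers in the labels pair the samples: deviations from group means correlated at 0.272 to 0.639 in the 18 same-number pairs and at most 0.0248 in the others, so values with the number as a block are given where they change a call. The genes and lists were chosen with earlier results of these data known. Genes named beside the 10 are up to 3 per list with the smallest p for siFOXM1 against siNeg, those called in both comparisons with siNeg, and the 5 most alike, of which 1 is not reported here. For a gene's 3′ UTR, GENCODE 29 on GRCh38 (hg38) was used, in 20 length classes.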

Additional observations from a re-analysis of the deposited data

How the results depend on the processing

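Of 556 values of the 10 genes tested under other settings, 551 kept their side of the threshold. The other 5 passed only with the replicate block, as given above, and the block changed no other call of these genes. Some values that did not pass changed sign when 1 library was left out. Without siNeg library 2, the log2 change with siCENPF went from 0.17 to -0.36 for BMPER and from 0.15 to -0.04 for ANGPT1. Of 378 described values 370 stayed within the spread between replicates and 8 moved, 7 on the FPKM table with its pseudocount of 0.5 (TMEM71 -1.49 with siFOXM1) and 1 with a pseudocount of 10 (TMEM71 -2.35); none reversed. Counts of genes called depended on the model. For siCENPF against siNeg the 50 became 671 with the replicate block, 136 with DESeq2 and 6 in a fit of only the groups compared. For both siRNAs against siFOXM1 the 1 became 44 with the replicate block and 4 with DESeq2. For the interaction the 0 became 125 with the replicate block and 24 with DESeq2. For siFOXM1 against siNeg the 98 became 1295 with the replicate block, 254 with DESeq2 and 41 in the groups compared. For both siRNAs against siNeg the 68 became 1174 with the replicate block, 169 with DESeq2 and 35 in the groups compared. Leaving out 1 library in turn gave 21 to 48, 1 to 1, 0 to 0, 34 to 112 and 30 to 80 in the same order. Of the textbook targets lower with siFOXM1, 1 was called on the FPKM table. The cause of these differences was not tested, beyond the fewer samples of the smaller fits. BMPER, with 7 to 105 reads, is limited by depth. In the 100 bases before the start alone, CCAAT stood in 2 of the 7 promoters and the other words in 0.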
